A study of Mus musculus with 6 samples.

Results

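The genes described here are the xenobiotic enzymes of the mouse distal colon: the cytochrome P450 families Cyp1 to Cyp4, the carboxylesterases (Ces), the UDP-glucuronosyltransferases (Ugt1 and Ugt2), the cytosolic sulphotransferases (Sult) and the glutathione S-transferases (Gsta, Gstk, Gstm, Gsto, Gstp, Gstt and Gstz). They were chosen by gene symbol among the protein-coding genes of the deposited table. No measured value entered that rule, but earlier results of these data were known when it was set. In all, 88 of the 20533 genes of the table were members, 23 of them in Cyp2, 20 in Gst, 16 in Ces, 10 in Cyp4, 9 in Sult, 4 in Ugt1, 3 in Ugt2, 2 in Cyp1 and 1 in Cyp3. The annotation holds 161 protein-coding genes with such symbols, and the other 73 are not analysed here.

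These enzymes clear foreign and endogenous lipophilic compounds. Cytochromes P450 and carboxylesterases oxidise or hydrolyse them (phase I), and transferases attach glucuronic acid, sulphate or glutathione (phase II), after which efflux pumps export the product. In the gut they are made mainly by absorptive epithelial cells, where they meet dietary and bacterial compounds, and their transcription is driven by sensors such as the aryl hydrocarbon receptor (Ahr), the pregnane X receptor (Nr1i2), the constitutive androstane receptor (Nr1i3) and the oxidative stress factor Nfe2l2.

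Distal colon RNA of wild type male C57BL/6 mice aged 7 weeks was sequenced after 7 days on 1 of 3 treatments, with 2 libraries in each group. One group drank water, another received 2% DSS (dextran sulphate sodium, which damages the lining of the colon), and the last received 2% DSS with montmorillonite powder, an adsorbent clay (DSS with clay). The labels give no dose of the clay and do not say that each library was a different mouse, so a p-value covers only library-to-library spread, which may be technical. Values are normalised read counts, that is, reads divided by 1 size factor per library, and the underlying reads summed to between 3741494 and 21481594 per library, with the DSS libraries the deepest.

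Epithelial transcripts were lower in both DSS libraries than in water, and replicates within the treated groups stood apart from each other. The summed normalised read count of 10 general epithelial genes (Epcam, Krt8, Cdh1 and others) was 141853 and 149609 on water, 61393 and 42809 on DSS and 154463 and 83072 on DSS with clay, and 8 of the 10 fell in DSS against water. Of 14 mature colonocyte markers 11 fell in DSS, and all 8 neutrophil markers rose, their sum being 32.6 and 47.8 on water, 3589.9 and 8427 on DSS and 114 and 7849 on DSS with clay. DSS replicate 2 and DSS plus montmorillonite replicate 2 also held stratified squamous keratinocyte transcripts, with a sum over 9 genes (Krt5, Krt14, Trp63 and others) of 52.8 and 471 on water, 196 and 40977 on DSS and 142 and 7858 on DSS with clay. In water replicate 1, 5 of these 9 were at 0. Skeletal muscle transcripts, summed over 6 genes, were 585 and 271 on water, 90.5 and 2879.6 on DSS and 3626 and 134 on DSS with clay. Of 11 hepatocyte genes 6 had a row, and their sum was 1729 and 1362 on water, 787 and 682 on DSS and 1879.9 and 2020.4 on DSS with clay. Of the 5 tested, Apob and Ttr fell in DSS and none rose, while the liver-defining Alb was at or near 0, with 2.88 and 4.55 on water, 1.01 and 0 on DSS and 4.31 and 0 on DSS with clay. The part of these marker groups in the members' changes was not tested. Among the members, DSS plus montmorillonite replicate 1 lay nearer on the log2 scale to the water mean than to the DSS mean for 72 of 88 genes (81.8%, against 64.5% of all genes tested). Replicate 2 did so for 19 of 88 (21.6%, against 33.3%), and each clay library's value is therefore given separately.

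The comparison of DSS with water asks how DSS changed the enzymes. In DSS 37 of the 88 members (42.0%) fell and 3 (3.41%) rose, while of all 20307 genes tested 7.18% fell and 7.9% rose, and 48 members did not pass. The falls took in members of each family but Cyp1, among them Sult1a1, Cyp2c55, Cyp2s1, Cyp3a13, Ces2a, Ugt2b34 and Gstm3, and the rises were Ces1f, Ces1g and Cyp4f18. A gene passed when its Benjamini-Hochberg adjusted p from limma, fitted to the 4 libraries compared on log2(value + 1) and adjusted over all 20307 genes, was below 0.05. At an unadjusted p below 0.05 there were 54 members (61.4%, against 32.4% of all genes tested). The median log2 difference of the members was -1.0, against 0.10 over all genes tested. Both DSS libraries lay below both water libraries for 53 members (60.2%, against 28.5% of all genes), and above both for 10 (11.4%, against 33.9%).

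The member calls rested on having all 4 libraries. With DSS replicate 1 or replicate 2 left out, no member passed limma in either direction, nor did any other gene. At an unadjusted p below 0.05 there were then 54 and 51 members (61.4% and 58% of them, against 30.8% and 23.6% of all genes). Without water replicate 1 there were 6 members lower and 1 higher (0.236% of all genes lower, 1.18% higher), and without water replicate 2 there were 7 lower and 0 higher (0.315% and 1.25%). A limma fit of all 6 libraries called 0 members (smallest adjusted p over all genes 0.0576, with 45 members and 23% of all genes at an unadjusted p below 0.05). After thinning each library to the reads of the shallowest, 5 members were lower and 0 higher (0.542% of all genes lower, 0.566% higher). Count tests on the recovered reads gave 38 members lower and 3 higher with edgeR (6.53% of all genes lower, 8.2% higher) and 39 lower and 4 higher with DESeq2 (10.7% and 12.1% of the 17550 genes it gave an adjusted p). In bulk tissue, fewer cells of a type and less RNA per cell cannot be told apart. When values were instead scaled so that the 10 general epithelial genes had the same level in each library, the median log2 difference of all genes became 1.36 and that of the members 0.30. On that scale 18 members fell (1.14% of all genes fell), all of them among the 37, and 17 rose (58.4% of all genes rose).

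**Figure D1:**
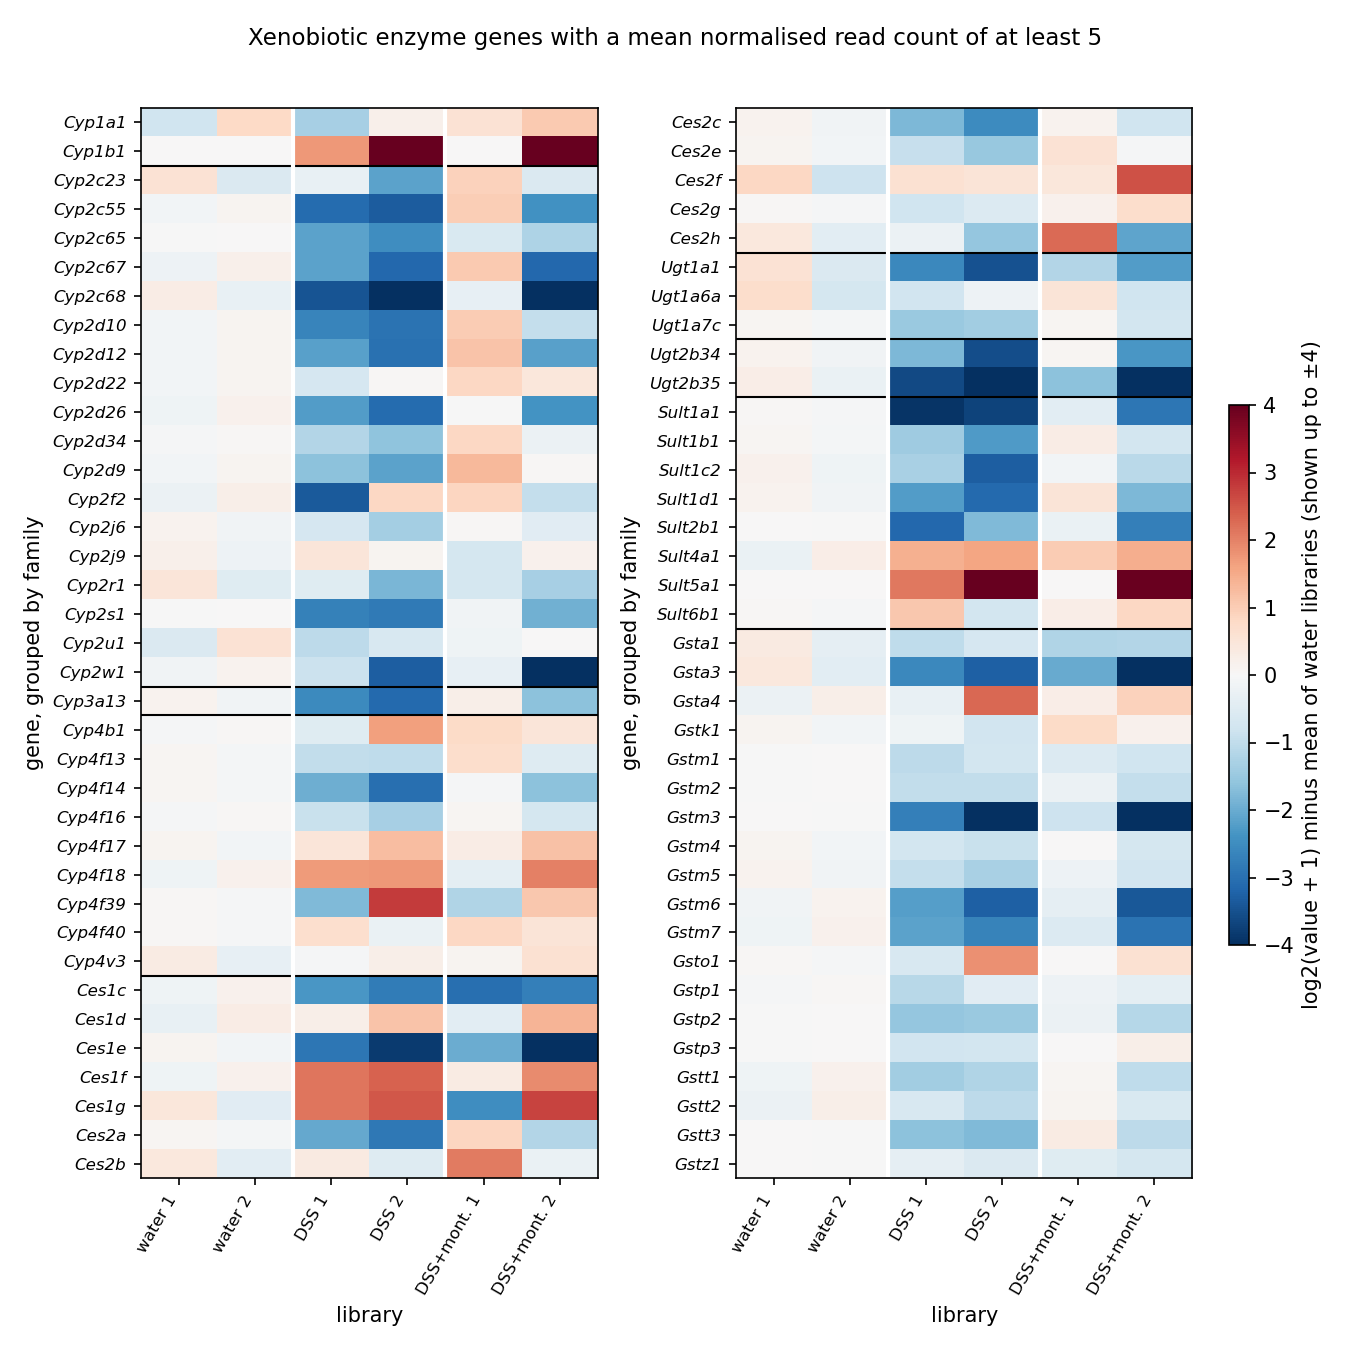
Heat map of the 74 members with a mean normalised read count of at least 5, as log2(value + 1) minus the mean of the water libraries; columns are the 6 libraries, rows are genes grouped by family with black lines between families, blue is lower and red higher than water, and the colour stops at 4 in either direction. The DSS columns and DSS plus montmorillonite replicate 2 are blue in most of Cyp2c, Cyp2d, Sult1 and Gstm, while DSS plus montmorillonite replicate 1 is near white or red in most rows.

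The share of falling members was higher than the background at each level of expression. Among the 39 members with a mean normalised read count from 100 to 1000, 22 fell (56.4%, against 9.18% of the 8365 genes at that level). Of the 6 members above 1000, 5 fell (83.3%, against 30.2% of 1675 genes). Of the 24 from 10 to 100, 9 fell (37.5%, against 3.05%), and of the 19 below 10 only Ces1b did (5.26%, against 0.464%).

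The Cyp1 family, whose genes are the classical targets of the aryl hydrocarbon receptor, was scarce. Cyp1a1, which oxidises polycyclic aromatic hydrocarbons, had 3.84 and 13.6 on water, 2.35 and 8.63 on DSS and 11.5 and 16.4 on DSS with clay (normalised read counts, as are the other levels in pairs that follow). The groups overlapped, and its log2 difference between DSS and water was -0.57 ± 0.85 (SE), adjusted p = 0.684 (limma). Cyp1b1, an extrahepatic enzyme of steroid and hydrocarbon oxidation, had no read in either water library, 2.35 and 90.1 on DSS and 0 and 36.3 on DSS with clay. Against a floor of 3 reads over the water group it was at least 19.0-fold higher in DSS, but nearly all of its reads lay in the libraries that also held keratinocyte transcripts, and it did not pass (adjusted p = 0.123, limma). The part of those transcripts in its level was not tested.

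The windows before the start sites of Cyp1a1, Cyp2c55 and Gsta3 are printed to show where the letters of known promoter motifs occur. These members were picked after the motif matches were seen. Each runs 250 bases up to the base before the start site, on the plus strand, from RefSeq on GRCm38.p6: chr9:57697363-57697612, chr19:39006769-39007018 and chr1:21240335-21240584. Capitals mark letters that match the xenobiotic response element core GCGTG, the TATA box TATAAA, or the antioxidant response element core (TGAC, any 3 bases, GC). Each was searched on both strands.
Cyp1a1: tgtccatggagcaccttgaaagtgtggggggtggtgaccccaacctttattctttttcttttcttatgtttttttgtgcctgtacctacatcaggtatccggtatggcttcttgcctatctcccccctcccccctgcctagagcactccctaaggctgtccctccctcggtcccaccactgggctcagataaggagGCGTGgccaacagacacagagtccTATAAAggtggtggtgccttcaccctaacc
Cyp2c55: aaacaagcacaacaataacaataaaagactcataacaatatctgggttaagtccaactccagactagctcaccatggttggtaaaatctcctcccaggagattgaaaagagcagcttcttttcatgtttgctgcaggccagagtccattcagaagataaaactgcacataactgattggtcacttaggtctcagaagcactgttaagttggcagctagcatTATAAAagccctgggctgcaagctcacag
Gsta3: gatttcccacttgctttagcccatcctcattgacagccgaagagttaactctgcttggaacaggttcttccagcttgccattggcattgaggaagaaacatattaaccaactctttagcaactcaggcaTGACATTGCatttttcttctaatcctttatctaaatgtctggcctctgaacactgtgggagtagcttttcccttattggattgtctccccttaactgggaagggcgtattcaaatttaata
In Cyp1a1 the GCGTG lies 54 bases and the TATAAA 30 bases before the start site, and in Cyp2c55 the TATAAA lies 29 bases before it. In Gsta3 the antioxidant element core lies 121 bases before it. Over windows of 300 bases (250 before to 50 after the start), which 74 of the 88 members had, GCGTG was in 22 of 89 member windows (24.7%) and in 32.4% of all 32851 windows. The antioxidant core was in 8 (8.99%, against 12.4%) and TATAAA in 17 (19.1%, against 13.6%). A match describes letters only, and no factor's binding was measured. Whether any marked stretch, the GCGTG of Cyp1a1 included, is a working element was not tested.

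The Cyp2 family held most of the P450 transcripts. In DSS 9 of its 23 genes fell (39.1%, against 7.18% of all genes tested), none rose and 14 did not pass. Its summed level was 10229 and 10361 on water, 2921 and 2404 on DSS and 15764 and 5213 on DSS with clay. Each DSS library thus lay below each water library, whereas the clay replicates lay on opposite sides of water. The Cyp2d and Cyp2c subfamilies made up most of that sum. Of 7 Cyp2d genes 5 fell, Cyp2d9, Cyp2d10, Cyp2d12, Cyp2d26 and Cyp2d34, and of 6 Cyp2c genes 3 fell, Cyp2c55, Cyp2c65 and Cyp2c68.

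Per kilobase of exon, Cyp2d34 was the most abundant P450 member, with a mean over the 6 libraries of 1042 normalised reads per kb, followed by Cyp2c55 with 435 and Cyp2c68 with 361. Cyp2c55 (ENSMUSG00000025002.5, GRCm38 chromosome 19, 39007019 to 39042693), an arachidonic acid hydroxylase of the colon, had 1101 and 1289 on water, 141 and 118 on DSS and 2333 and 219.8 on DSS with clay. Both DSS libraries and clay replicate 2 were far below water and clay replicate 1 was above it. Its log2 difference between DSS and water was -3.20 ± 0.20 (SE), adjusted p = 0.00245 (limma). Cyp2c68 had 1526 and 1009.8 on water, 113 and 51.8 on DSS and 994 and 43.6 on DSS with clay. Its difference of -4.0 ± 0.41 (SE), with adjusted p = 0.00691 (limma), was the largest fall among the Cyp genes on the log2(value + 1) scale. Here too clay replicate 2 sat with the DSS libraries, below both of them. Cyp2c68 shared 43.3% of its 50-base transcript windows with other genes, so its reads may include those of near-identical copies. On the recovered reads Cyp2c69, with 18 and 1 reads on water and 1 and 0 on DSS, fell by more. Nearly all of its water reads lay in replicate 1, and 54.3% of its transcript windows occur in other genes. Its log2 difference was -5.32 with edgeR and -5.70 with DESeq2 (adjusted p = 0.0467 and 0.0348), but it did not pass with limma.

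Cyp2s1, which metabolises retinoids and eicosanoids in epithelia, had 1816 and 1826 on water, 282 and 255 on DSS and 1654 and 478 on DSS with clay. The log2 difference between DSS and water was -2.76 ± 0.16 (SE) and adjusted p = 0.0023 (limma), with no overlap. Cyp2d34 had 3100.3 and 3327 on water, 1439.8 and 1055 on DSS and 5679.9 and 2756 on DSS with clay, and its smaller fall was -1.38 ± 0.20 (SE) on the log2 scale (adjusted p = 0.0133, limma). With epithelial scaling the log2 difference of Cyp2d34 was -0.05, while those of Cyp2c55, Cyp2c68 and Cyp2s1 were -1.87, -2.68 and -1.43. Cyp2f2, a naphthalene oxidising enzyme, split the DSS pair, with 72.9 and 100.1 on water against 7.37 and 154 on DSS, and did not pass.

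Cyp3a13 (ENSMUSG00000029727.7, GRCm38 chromosome 5, 137892932 to 137921619) was the only Cyp3 gene measured; the Cyp3a enzymes oxidise a wide range of drugs and steroids. It had 1749 and 1417 on water, 269 and 181 on DSS and 1837 and 501 on DSS with clay. Each DSS value was below each water value by a wide margin, clay replicate 1 was just above water, and clay replicate 2 lay between the groups. The log2 difference between DSS and water was -2.83 ± 0.25 (SE), adjusted p = 0.00544 (limma).

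Cyp4 enzymes hydroxylate the ends of fatty acid chains, including leukotrienes. Of the 10 genes 3 fell (30%, against 7.18% of all genes tested). A single one rose (10%, near the 7.9% of all genes), and 6 did not pass. The median log2 difference was 0.15. Cyp4f14 fell most, from 505 and 455 on water to 122 and 58 on DSS (log2 -2.50 ± 0.37 (SE), adjusted p = 0.0141, limma). Cyp4f16, with 521 and 553 on water, 290.1 and 211 on DSS and 569.6 and 329 on DSS with clay, and Cyp4f13, with 359 and 325 on water, 171 and 167 on DSS and 554 and 236 on DSS with clay, fell by 1.11 and 1.01 on the log2 scale. With epithelial scaling both had differences above 0, of 0.22 and 0.32. Cyp4f40 had 324 and 300.2 on water and 502 and 262 on DSS, values that overlapped.

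The Cyp4 gene that rose was Cyp4f18 (ENSMUSG00000003484.4, GRCm38 chromosome 8, 71988482 to 72009626), which oxidises leukotriene B4 in neutrophils. It had 55.7 and 70.5 on water, 205 and 212 on DSS and 47.5 and 254 on DSS with clay. Both DSS libraries and clay replicate 2 were well above water and clay replicate 1 was below it. It rose 3.30-fold in DSS (log2 1.72 ± 0.27 (SE), adjusted p = 0.015, limma). The libraries with high Cyp4f18 were those with high neutrophil marker sums, given above, and the part of neutrophils in the change was not tested.

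The carboxylesterases hydrolyse ester and amide bonds in drugs and lipids. Of the 16 genes 6 fell (37.5%, against 7.18% of all genes tested) and 2 rose (12.5%, against 7.9%). Of 7 Ces2 genes, the main esterases of the gut, 3 fell and none rose, while of 8 Ces1 genes 3 fell and 2 rose. The summed level of Ces2 was 3236 and 2695 on water, 1260.0 and 929 on DSS and 4365 and 2727 on DSS with clay, and that of Ces1 was 371 and 400.3 on water, 739 and 1014 on DSS and 206 and 1052 on DSS with clay. In DSS both libraries lay below water for Ces2 and above it for Ces1, and the difference between the subfamilies was not tested.

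Ces2a had 916 and 805 on water, 205 and 117 on DSS and 1550.5 and 379.7 on DSS with clay, a log2 difference of -2.46 ± 0.30 (SE) between DSS and water with adjusted p = 0.00906 (limma). Ces2c had 673 and 548 on water, 173 and 105 on DSS and 669 and 349 on DSS with clay (-2.16 ± 0.29 (SE), adjusted p = 0.0112), and shared 36.1% of its transcript windows with other genes. Ces2e, the most abundant carboxylesterase per kb (352 normalised reads per kb over the 6 libraries), had 1161 and 982 on water, 562 and 369 on DSS and 1602 and 1025 on DSS with clay. All 3 were lower in DSS than in water in each library, and Ces2e fell least, by 1.23 on the log2 scale (adjusted p = 0.0281, limma). With epithelial scaling its difference was 0.10.

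The Ces1 genes lie side by side within 359.5 kb of chromosome 8 (GRCm38 93020214 to 93379725), and the calls along that stretch ran in both directions. In order of position Ces1a was not called, Ces1b and Ces1c fell, Ces1d was not called, Ces1e fell, Ces1f and Ces1g rose, and Ces1h was not called. Ces1g (ENSMUSG00000057074.6, GRCm38 chromosome 8, 93302369 to 93337308), a lipid-hydrolysing esterase best known from liver, had 96 and 50.03 on water, 312 and 390.2 on DSS and 11.5 and 461 on DSS with clay. It was high in DSS and clay replicate 2 and lowest in clay replicate 1. It rose 4.97-fold (log2 2.31 ± 0.36 (SE), adjusted p = 0.0156, limma).

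Ces1f, its neighbour, had 47 and 59.1 on water, 234 and 276 on DSS and 66.2 and 198 on DSS with clay and rose 4.75-fold (log2 2.25 ± 0.27 (SE), adjusted p = 0.00904, limma). Ces1e, which fell, had 57.6 and 50.03 on water, 6.37 and 2.88 on DSS and 12.9 and 1.82 on DSS with clay, and Ces1c had 37.4 and 47.8 on water, 7.71 and 5.27 on DSS and 4.31 and 5.45 on DSS with clay. For both, all 4 treated libraries lay below both water libraries. Ces1b had 11.5 and 9.10 on water and no read in the DSS or clay libraries, so it was at least 18.3-fold lower in DSS and at least 4.48-fold lower with clay, taking 3 reads per group as the floor.

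Among the glucuronosyltransferases 2 of 4 Ugt1 and 2 of 3 Ugt2 genes fell in DSS (50% and 66.7%, against 7.18% of all genes tested) and none rose. The Ugt1 genes share their last exons, so that 58.2% of the transcript windows of Ugt1a1 and 53.7% of those of Ugt1a7c occur in other genes, and reads could be split among them. Ugt1a7c had 497 and 439 on water, 165 and 179 on DSS and 495 and 283 on DSS with clay, a log2 difference of -1.44 ± 0.20 (SE) with adjusted p = 0.0116 (limma). Ugt1a1, the bilirubin-conjugating form, had 31.7 and 13.6 on water, 2.68 and 0.959 on DSS and 8.63 and 3.63 on DSS with clay and fell by 3.03 on the log2 scale (adjusted p = 0.0401). Both were lower in each DSS library than in water, and Ugt1a6a, with 37.4 and 13.6 on water and 13.1 and 19.7 on DSS, overlapped.

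Ugt2b enzymes conjugate steroids, bile acids and phenols. Ugt2b34 (ENSMUSG00000029260.15, GRCm38 chromosome 5, 86889767 to 86906937) supplied 94.3% of the summed Ugt2 level of the water libraries, with 4255 and 3477 on water, 1118 and 325 on DSS and 4063 and 769 on DSS with clay. The DSS libraries and clay replicate 2 were low and clay replicate 1 was within the water range. Its log2 difference between DSS and water was -2.67 ± 0.54 (SE), adjusted p = 0.029 (limma). On the log2(value + 1) scale Ugt2b35 showed the largest fitted fall of all members, from 269.7 and 189 on water to 17.4 and 0 on DSS. The clay libraries had 71.9 and 1.82. The fall of Ugt2b35 in DSS was -5.72 ± 1.29 (SE) on the log2 scale with adjusted p = 0.0376 (limma), with no read in DSS replicate 2. Ugt2b1 was at or below 7.19 in each library and did not pass.

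**Figure D2:**
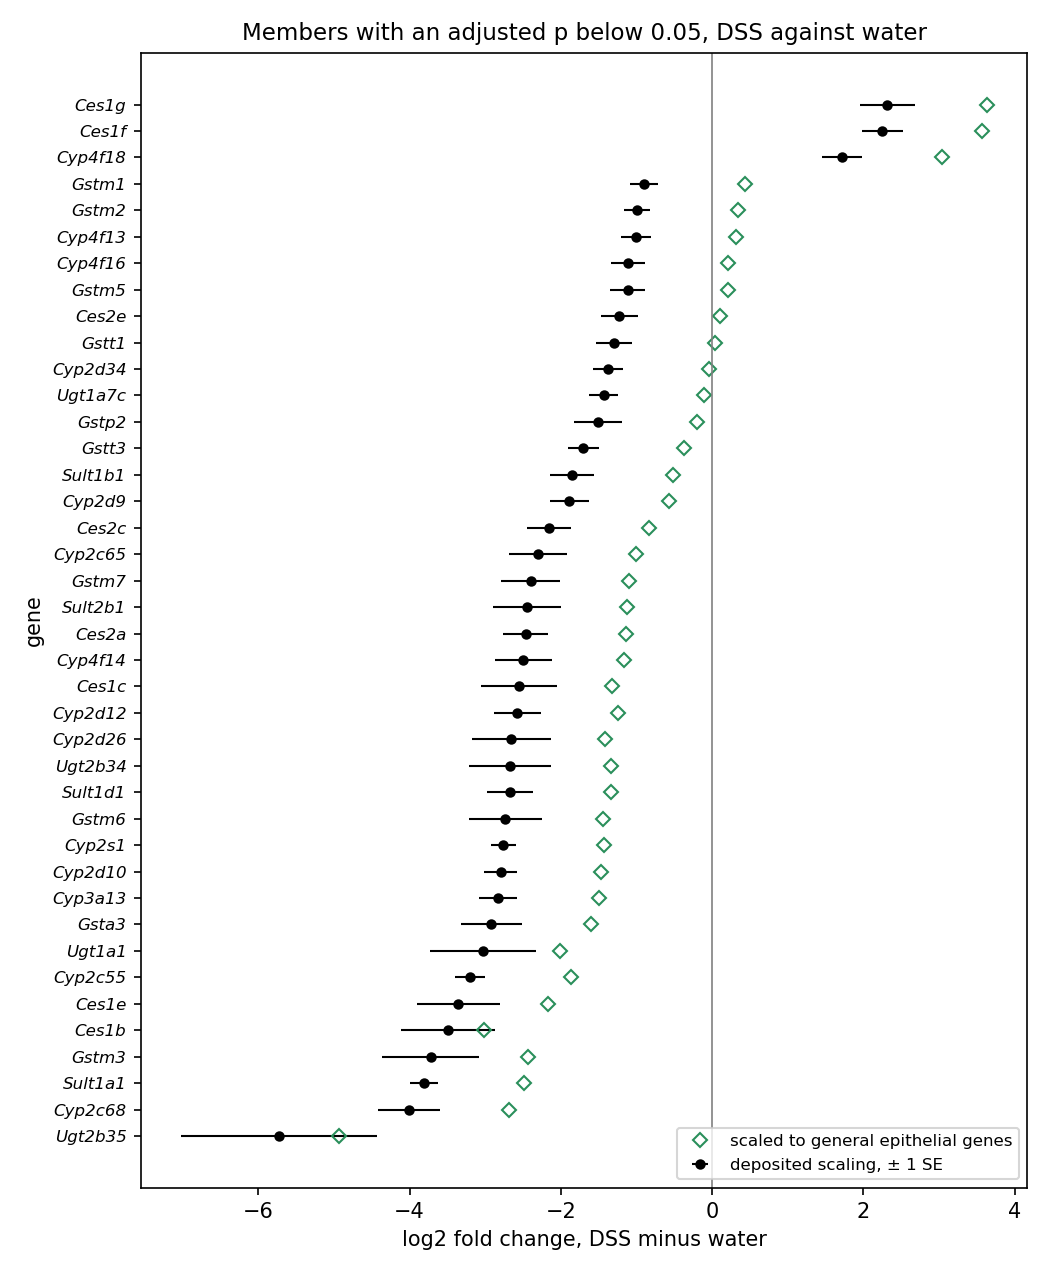
The 40 members that passed in DSS against water, ordered by log2 fold change; black points with bars are the difference on the deposited scale with 1 standard error, and open green diamonds are the difference after scaling to 10 general epithelial genes. On the deposited scale 37 points lie below 0 and 3 above, and with epithelial scaling several members with small falls, Gstm1 and Cyp4f13 among them, lie above 0.

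Among the sulphotransferases 4 of 9 fell (44.4%, against 7.18% of all genes tested), none rose and 5 did not pass. The 4 that fell made up nearly all of the family's transcripts. The family sum was 7939 and 7071 on water, 1843 and 1210.0 on DSS and 8516 and 2842 on DSS with clay. Sult1b1, a phenol and thyroid hormone enzyme of the gut, had 3156 and 2813 on water, 1105 and 617 on DSS and 3678 and 1777 on DSS with clay. It fell by 1.85 on the log2 scale (adjusted p = 0.0158, limma). Over the 6 libraries it was the most abundant sulphotransferase per kb (788 normalised reads per kb). On water alone Sult1a1 was higher, with 1180 per kb against 1074 for Sult1b1.

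Sult1a1 (ENSMUSG00000030711.15, GRCm38 chromosome 7, 126672865 to 126676432), the phenol sulphotransferase, had 1839 and 1717 on water, 115 and 137 on DSS and 1333 and 238 on DSS with clay. Both DSS values were far below either water value, clay replicate 1 was between the groups but nearer water, and clay replicate 2 was nearer DSS. The log2 difference between DSS and water was -3.81 ± 0.18 (SE), adjusted p = 0.00148 (limma), the smallest p among the members. Sult1d1, which sulphates catecholamines and other small phenols, had 2129 and 1789.8 on water, 412 and 226 on DSS and 2821 and 567 on DSS with clay and a difference of -2.67 ± 0.31 (SE) (adjusted p = 0.00843, limma). Sult2b1, a cholesterol sulphotransferase, had 482 and 478 on water, 53.3 and 142 on DSS and 396 and 70.9 on DSS with clay and fell by 2.45. Sult5a1 had no read in water and 3.35 and 19.7 on DSS, at least 4.97-fold higher against the floor of 3 reads, and did not pass (adjusted p = 0.0642, limma).

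Among the glutathione S-transferases 10 of 20 fell (50%, against 7.18% of all genes tested), none rose and 10 did not pass. In 17 of the 20 both DSS libraries lay below both water libraries (85%, against 28.5% of all genes). In the other 3, Gsta4, Gsto1 and Gsto2, the groups overlapped. Of 7 Gstm genes, which lie within 149.1 kb of chromosome 3, 6 fell and all 7 had both DSS libraries below both water libraries. The seventh, Gstm4, had 115 and 100.1 on water and 63.7 and 58 on DSS (adjusted p = 0.115, limma). The summed Gstm level was 2749 and 2745 on water, 1220.4 and 1268 on DSS and 2065 and 1328 on DSS with clay. With epithelial scaling 3 of the 20 Gst genes were lower in DSS and 2 higher (1.14% and 58.4% of all genes). The median log2 difference of the family was then 0.46, against -0.87 on the deposited scale.

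Gstm1, which conjugates electrophiles such as epoxides, had 1164 and 1185 on water, 562 and 701 on DSS and 804 and 681 on DSS with clay and fell by 0.90 on the log2 scale (adjusted p = 0.0277, limma), the smallest fall that passed. With epithelial scaling its difference was 0.43. Gstm3 had 239 and 232 on water, 34.2 and 8.15 on DSS and 132 and 9.08 on DSS with clay, a difference of -3.72 ± 0.64 (SE) with adjusted p = 0.0195 (limma). It was lowest in DSS replicate 2 and clay replicate 2, and 28.8% of its transcript windows occur in other genes. Gsta3, an alpha-class enzyme active in steroid and aflatoxin metabolism, had 456 and 250.2 on water, 55.6 and 34.5 on DSS and 83.4 and 18.2 on DSS with clay and fell by 2.92 (adjusted p = 0.0116, limma), with all 4 treated libraries below water. Gstt3 and Gstt1 of the theta class fell by 1.70 and 1.29.

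Gsto1, an omega-class enzyme that reduces glutathione adducts and arsenic compounds, was the most abundant member per kb, with 2328 normalised reads per kb over the 6 libraries. It had 3349.9 and 3134 on water, 2065 and 11542 on DSS and 3272 and 4895 on DSS with clay. DSS replicate 1 was below water and DSS replicate 2 far above it, and the log2 difference of 0.59 ± 0.74 (SE) did not pass (adjusted p = 0.621, limma). Gsto1 made up most of the summed Gst level of DSS replicate 2, the family sum being 9589 and 9402 on water, 5027 and 15815 on DSS and 8626 and 8770.2 on DSS with clay. Gsta4, which conjugates the lipid peroxidation product 4-hydroxynonenal, had 225 and 305 on water, 212 and 1302 on DSS and 316 and 499.6 on DSS with clay. Clay replicate 2 was also above both water libraries for Gsto1 and Gsta4. Gstp1, the pi-class enzyme, had 1065 and 1159.8 on water, 509.9 and 818 on DSS and 974 and 854 on DSS with clay and did not pass (adjusted p = 0.0934, limma), although both DSS values were below water.

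Gsto1, Gsta4, Cyp1b1, Cyp2f2 and Cyp4f39 shared the pattern of a high DSS replicate 2, and they were named here after their values were seen. On the log2(value + 1) scale their gaps between DSS replicates 2 and 1 were 2.48, 2.61, 4.77, 4.21 and 4.56. Other members had such gaps too, among them Cyp2b10 (3.27), Sult5a1 (2.25) and Cyp4b1 (2.13). DSS replicate 2 carried the high squamous keratinocyte sum given above. Its sums of 7 fibroblast and 7 endothelial markers were also above those of DSS replicate 1 (62632 against 37492, and 5326 against 3081). Clay replicate 2, with the next highest keratinocyte sum, was also above clay replicate 1 for Gsto1, Gsta4, Cyp1b1 and Cyp4f39, but not for Cyp2f2. It was above it for Cyp2b10 and Sult5a1 as well, but not for Cyp4b1. Its fibroblast and endothelial sums were 38700 and 3207, against 12282 and 956 in clay replicate 1. The part of keratinocyte, fibroblast or endothelial RNA in these levels was not tested.

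**Figure D3:**
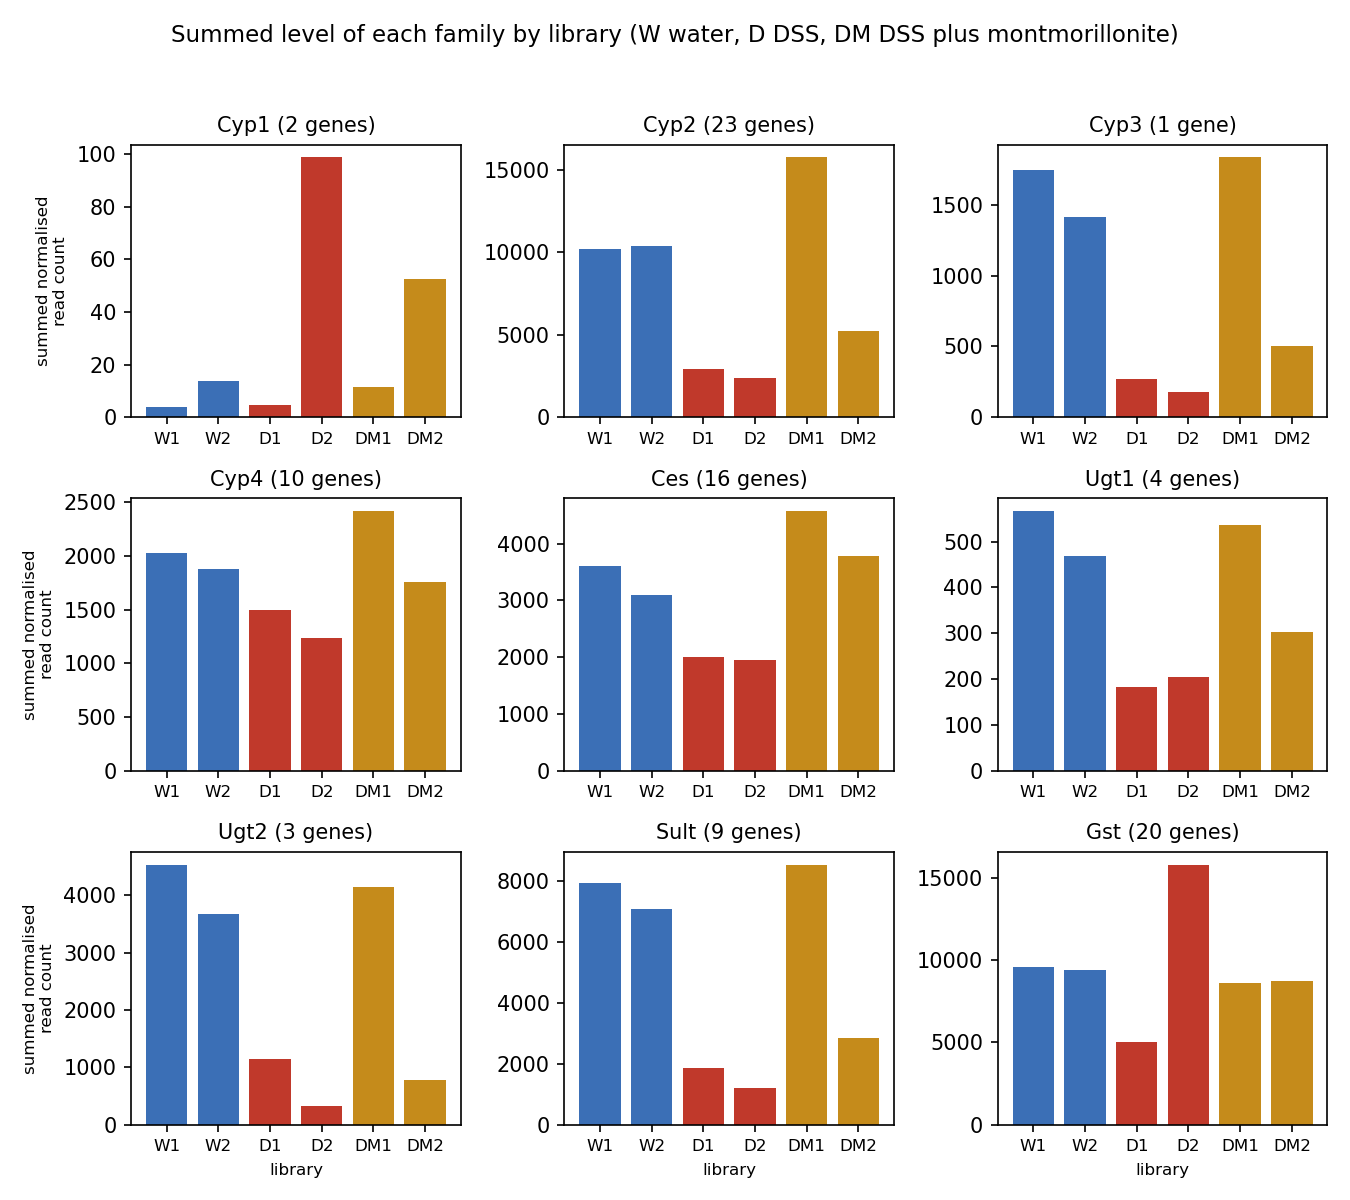
Summed normalised read count of each family in each library; bars start at 0, W is water, D is DSS, DM is DSS plus montmorillonite, and the number is the replicate. Cyp2, Cyp3, Ugt2 and Sult are low in D1, D2 and DM2 and high in W1, W2 and DM1, while Gst is highest in D2.

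The sensors and partners of these enzymes changed in part. For scale, 7.18% of all genes tested fell in DSS and 7.9% rose. Of 15 regulators, 5 fell in DSS and none rose, namely Hnf4a, Vdr, Nr1i2, Nr1i3 and the bile acid receptor gene Nr1h4 (793 and 762 on water, 474 and 360 on DSS; adjusted p = 0.0352, limma). Hnf4a, which maintains enterocyte gene expression, had 8263 and 7903 on water, 2738 and 1057 on DSS and 9499 and 2395 on DSS with clay (log2 -2.25 ± 0.43 (SE), adjusted p = 0.0246, limma). Vdr, the vitamin D receptor, had 3739 and 3857 on water, 648 and 439 on DSS and 5178 and 930.3 on DSS with clay (log2 -2.83 ± 0.22 (SE), adjusted p = 0.00447, limma). Both were low in DSS and clay replicate 2 and at or above the water level in clay replicate 1.

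The pregnane X receptor gene Nr1i2 had 707 and 687 on water, 324 and 159 on DSS and 997 and 389 on DSS with clay and fell by 1.61 on the log2 scale (adjusted p = 0.0324, limma). Nr1i3 had 22.1 and 25 on water, 3.35 and 3.36 on DSS and 12.9 and 5.45 on DSS with clay and fell by 2.49 (adjusted p = 0.0324). By contrast Ahr had 261 and 237 on water and 296 and 346 on DSS, its partner Arnt 474 and 409 and 473 and 640.0, and neither passed. The receptor's repressor Ahrr had 49.9 and 52.3 on water and 20.8 and 25.9 on DSS, and its target Tiparp 313 and 282 and 290.1 and 349. Neither of these passed (adjusted p = 0.114 and 0.771, limma), nor did Nfe2l2 (1289 and 1412 against 1279 and 1608) or its inhibitor Keap1 (523 and 507 against 402 and 462). Nqo1, a quinone reductase and a known Nfe2l2 target, fell from 272 and 193 on water to 56.6 and 86.8 on DSS (log2 -1.69 ± 0.33 (SE), adjusted p = 0.0258, limma).

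**Figure D4:**
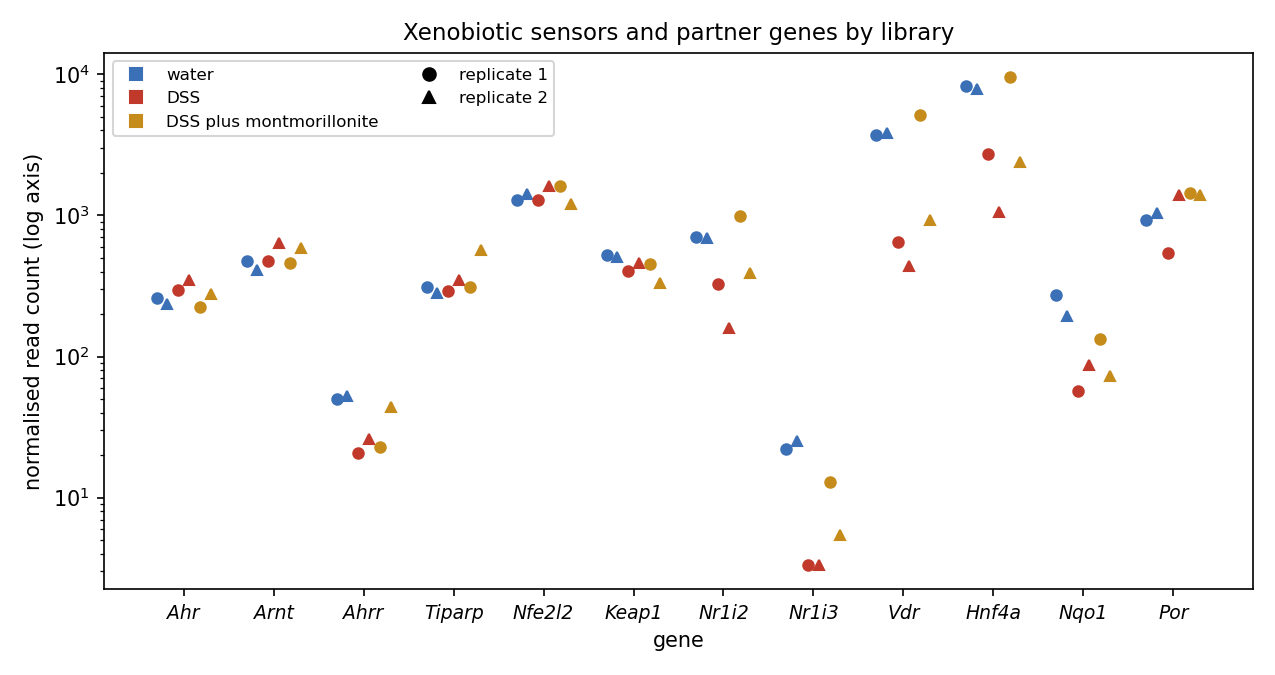
Normalised read counts, on a log axis, of 12 sensor and partner genes in the 6 libraries; colour gives the group, circles are replicate 1 and triangles replicate 2. Vdr, Hnf4a, Nr1i2, Nr1i3 and Nqo1 lie lower in each DSS library than in water and passed. The other 7 genes did not pass, although Ahrr and Keap1 also lie lower in each DSS library.

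Of 12 genes for P450 partners and haem supply, 1 fell and none rose, a share near the 7.18% of all genes tested that fell. That gene, Cyb5b, a cytochrome b5, had 3237 and 3436 on water and 1905 and 1370.1 on DSS (adjusted p = 0.0266, limma). The P450 reductase gene Por, which feeds electrons to all microsomal P450 enzymes, had 932 and 1037 on water, 544 and 1390.2 on DSS and 1438 and 1384 on DSS with clay, values that overlapped between water and DSS. Of 27 other phase I genes, 14 fell and 1 rose, against 7.18% and 7.9% of all genes tested. They included the amine oxidase Maob, from 518 and 414 to 88.1 and 71.4 (log2 -2.53 ± 0.24 (SE), adjusted p = 0.00638, limma), and the aldehyde dehydrogenase Aldh1b1, from 905 and 1208 to 199 and 134. The 1 that rose was the aldehyde oxidase Aox1, from 33.6 and 27.3 to 75.4 and 107.

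Of 19 other phase II and cosubstrate genes measured, 7 fell and none rose, against 7.18% and 7.9% of all genes tested. Papss1, which makes the sulphate donor used by the sulphotransferases, had 1849.6 and 1783 on water and 489 and 565 on DSS (log2 -1.79 ± 0.17 (SE), adjusted p = 0.00607, limma). Glrx, a glutaredoxin, fell from 1192 and 1262 to 469 and 471. Of 15 transporters measured, 4 fell and 2 rose, set against the same shares of all genes. Abcb1a, the intestinal P-glycoprotein pump, had 3829 and 3061 on water, 687 and 618 on DSS and 6458 and 1523 on DSS with clay (log2 -2.39 ± 0.18 (SE), adjusted p = 0.00402, limma), and Slc22a18 fell from 783 and 787 to 264 and 224. The 2 that rose were Abcb1b, the second P-glycoprotein gene, from 22.1 and 20.5 to 79.4 and 124, and Abcc5, from 131 and 150.1 to 364 and 456. Aox1, Abcb1b and Abcc5 were named after their values were seen.

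The comparisons with montmorillonite ask whether the clay altered the response to DSS. No member passed in DSS plus montmorillonite against water or against DSS alone, nor did any of all 20307 genes (0% called in each direction, smallest adjusted p = 0.629 and 0.691 with limma), and edgeR on the recovered reads called 0 members in both. At an unadjusted p below 0.05 there were 7 members against water (7.95%, against 7.76% of all genes), a share near the background, and 15 against DSS (17%, against 7.11%). DESeq2 called 113 genes (0.857% of those it gave an adjusted p) lower than water, of which 1 was a member, Gsta3, and 50 (0.347%) higher than in DSS, of which 2 were members, Cyp2d9 and Cyp2d10. Cyp2d9 and Cyp2d10 share 21.8% and 35.8% of their transcript windows with other genes.

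Against DSS, both clay libraries lay above both DSS libraries for 34 members (38.6%, against 19.4% of all genes) and below for 5 (5.68%, against 20.6%), and the median log2 difference was 0.78. Against water, both lay below both water libraries for 24 members (27.3%, against 19.2%) and above for 10 (11.4%, against 21.5%), with a median of -0.26. These comparisons share the DSS or the water libraries with the comparison of DSS with water and are not independent of it.

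The clay replicates differed more among the members than among all genes. The median absolute gap between replicates on the log2 scale was 1.34 for the members in DSS plus montmorillonite, against 0.64 for all genes, whereas in DSS it was 0.60 against 0.40 and in water 0.30 against 0.29. Replicate 1 was above replicate 2 for 58 members and below it for 29, while 48.6% of all genes tested were higher in replicate 1. Wide gaps were seen in Cyp2c68, Cyp2c55, Gstm3 and Cyp2d12, all higher in replicate 1, and in Ces1g, higher in replicate 2. Against the water mean, the median log2 difference in replicate 2 was -0.95 for Cyp2, -0.78 for Gst, -0.75 for Sult and -2.32 for Ugt2. It was -0.16 for Ces and 0.50 for Cyp4. In replicate 1 the medians of these families were -0.01, -0.21, 0.25, 0.08, 0.07 and 0.09.

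Without clay replicate 2, a fit that assumes the lone replicate 1 to vary like the DSS pair called 10 members higher than in DSS, where it called 59 of all genes (0.291%) higher. The 10 were Ces2a, Cyp2c55, Cyp2c68, Cyp2d9, Cyp2d10, Cyp2d12, Cyp2s1, Cyp3a13, Sult1a1 and Sult1d1. One member, Ces1g, was lower, as were 226 of all genes (1.11%). Without clay replicate 1 no member was called with limma, and 10 members had an unadjusted p below 0.05 (11.4%, against 7.13% of all genes). The members nearest to passing with both replicates were Cyp2d9, at 119.6 and 84.8 on DSS and 935 and 385 with clay (log2 2.56 ± 0.51 (SE), adjusted p = 0.691, limma), Cyp2d10, at 104 and 83.4 and 1329 and 336, and Ces2e. In each of them both clay libraries lay above both DSS libraries.

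Some members lay below water in both clay libraries. Ces1c had 4.31 and 5.45 with clay against 37.4 and 47.8 on water, Gsta3 83.4 and 18.2 against 456 and 250.2, and Gsta1 46 and 47.2 against 139 and 84.1. For Ces1c and Gsta1 the clay pair was as tight as the DSS pair, but that of Ces1c rested on only 3 reads in each library. Neither gene passed (adjusted p = 0.629 for each, limma), and 90.5% of the transcript windows of Gsta1 are shared with other genes. They were named after their values were seen.

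**Figure D5:**
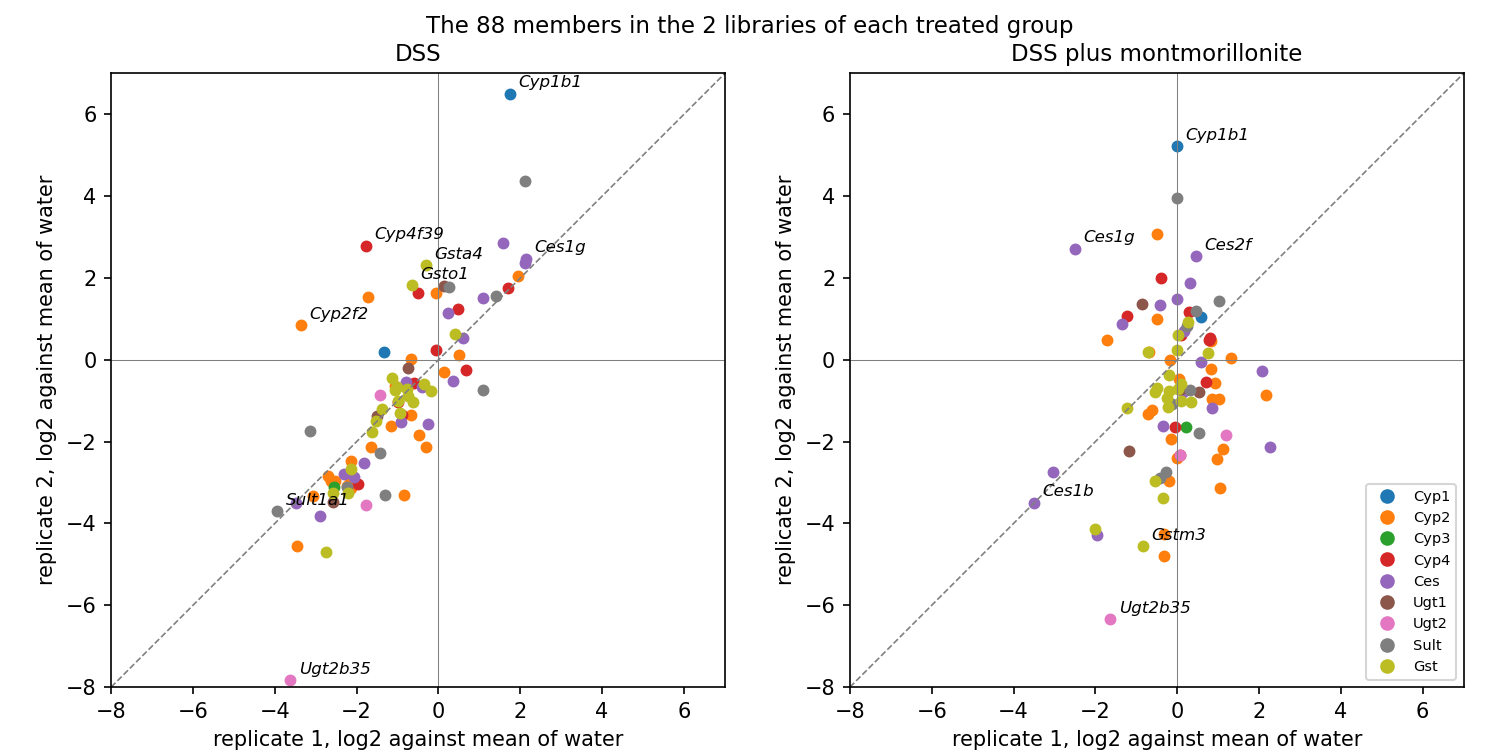
Each of the 88 members by its log2(value + 1) minus the water mean in replicate 1 (horizontal) and replicate 2 (vertical), for DSS (left) and DSS plus montmorillonite (right); colours are families and the dashed line marks equal replicates. In DSS most points lie near the line below 0, apart from members such as Cyp1b1, Cyp4f39 and Gsto1 that are high in replicate 2; with clay most points lie near 0 in replicate 1 and spread downwards in replicate 2.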

How the data were processed

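The deposited table held a signal per gene and library, which the authors had made by dividing read counts by 1 factor per library; in each library 100% of the values were whole multiples of 1 read to within 0.01 read, and the factors equalled DESeq2's median-of-ratios size factors computed from those reads. Reads were placed on mm10 (GRCm38), per the submitters' processing notes; the aligner, counting tool and strandedness are not given in the sources used here. No gene had fewer than 10 reads in sum. The water libraries held 8936826 and 3741494 reads, the DSS libraries 21481594 and 15212981, and those with clay 6395768 and 4494666, 1 read being worth 0.335 to 2.27. Symbols, positions and exon lengths came from GENCODE M21 on GRCm38, in which 20500 of 20533 identifiers were found.

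The test was limma 3.58.1 (R 4.3.3) with an intensity trend, two-sided, on log2(value + 1), for the 20307 genes whose mean value reached 1 (226 did not, none a member), fitting only the 4 libraries at issue (2 residual degrees of freedom). Fold changes are on that scale and understate those of low genes. The alternatives were edgeR 4.0.16 and DESeq2 1.42.0 on the recovered reads, other pseudocounts, filters and scalings, all 6 libraries, a replicate block, thinned reads and leaving out each library. Members and lists were chosen with earlier results of these data known, and the fit of 4 libraries knowing that a fit of 6 called no gene.

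The text names the 3 most abundant members of each family, the 4 with the largest fold change in each direction among those that passed with a mean of at least 5, 11 fixed sensors and partners, and the 2 genes of each pathway list with the smallest p. Others were chosen after their values were seen. Shared sequence is the share of a gene's 50-base transcript windows that occur in another gene; read length is not given in the sources used here.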

Additional observations from a re-analysis of the deposited data

How the results depend on the processing

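The 37 lower and 3 higher members in DSS against water became 18 and 17 with scaling to general epithelial genes, 0 and 0 with all 6 libraries in the fit, 5 and 0 with reads thinned to the shallowest library, and 0 to 7 and 0 to 1 when 1 library was left out. With a replicate block they were 44 lower and 5 higher. The labels do not say whether same-numbered libraries of different groups belong together. The correlation of same-numbered deviations was 0.09 between water and DSS, 0.08 between water and the clay group and 0.30 between DSS and the clay group. With only 1 gap between replicates per group, these values cannot settle that question. Pseudocounts of 0.5 and 5, no filter, a mean of at least 10, library total scaling, edgeR and DESeq2 gave 33 to 39 lower and 3 to 4 higher. Library total scaling moved the median log2 difference of all genes from 0.10 to 0.33. Over all genes the 1459 lower and 1605 higher of DSS against water became 893 and 2199 with library total scaling, 232 and 11863 with epithelial scaling, 2360 and 2724 with the replicate block, 110 and 115 with thinned reads, and 0 and 0 with all 6 libraries. DESeq2 called 1 member lower with clay than in water and 2 higher with clay than in DSS, where limma called 0. Leaving out 1 library gave 0 to 10 members higher and 0 to 1 lower with clay than in DSS. With epithelial scaling the log2 difference between DSS and water turned positive for 4 of the 29 members named by rule, all of which had passed. They were Ces2e (0.10), Cyp4f16 (0.22), Cyp4f13 (0.32) and Gstm1 (0.43). Other members that had passed turned positive too, Gstt1 (0.03) and Gstm5 (0.21) among them. Of 1299 values of the 29 under alternatives, 1155 kept their side of the threshold, and 127 lost and 13 gained the call. Those of Ces2e, Cyp4f16, Cyp4f13 and Gstm1 with epithelial scaling reversed. The 1155 include sign changes of members called in neither fit, such as Cyp1a1 (-0.57 to 0.57 with epithelial scaling). The cause of the changes was not tested. Low levels were coarsest in water, where 1 read was worth up to 2.27.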
